A study of Mus musculus with 12 samples.

Results

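SBE4 is a forebrain enhancer of Sonic hedgehog (Shh) that lies in the gene-poor stretch between Shh and Lmbr1. Its contacts are described here as the chromosome conformation capture carbon copy (5C) fragment pairs with 1 midpoint in a 40-kb window on the mm9 build, chr5:29125000-29165000, and the other outside it. Pairs with a partner in the Shh window (28770000 to 28810000) or in the window of the neural enhancer SBE6 (28875000 to 28915000) were set apart. The rule uses positions alone and no measured value. It gave 2205 of the 57970 fragment pairs, and 1108 of these were above 0 in at least 1 library, of 28980 such pairs in all (3.82%). The window holds 7 of the 341 HindIII fragments.

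Shh is a secreted signal that patterns the ventral forebrain, the spinal cord and the limb. Enhancers spread over a large domain control where it is made: SBE2 and SBE4 act in the ventral forebrain, SBE6 acts in neural tissue, and the ZRS, inside an intron of Lmbr1, acts in the limb. An enhancer is thought to meet its gene within such a domain by looping or by changes in how compact the chromatin is. The 5C method crosslinks chromatin, cuts it with HindIII, ligates ends that lie close together and counts each joined pair of ends by sequencing oligonucleotides annealed across them.

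The study covered 5 groups of mouse cells. ESC were 46c embryonic stem cells, a line with green fluorescent protein at Sox1, in 2 biological replicates. NPC were neural progenitor cells differentiated from that line in N2B27 medium over 7 days, also in 2 replicates. The groups tSBE6-Vp64 (1 replicate), tSBE2-Vp64 (1 replicate) and tSBE(6+2-Vp64) (2 replicates) were transfected 46c stem cells. The labels do not spell out the t, taken here to mean a TALE, a designed DNA-binding protein, aimed at SBE6, at SBE2 or at both. Vp64 is a strong transcription activator carried by that protein. No construct was aimed at SBE4. A protein without its activator was not analysed here, so each transfected group was compared with ESC that had not been transfected. Cell identity could not be checked, since 5C measures DNA contacts and not marker genes.

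The 12 files held 11 distinct libraries, because 1 NPC library had been entered under both NPC replicates (largest difference 4.02e-08). It was counted once. Low values were whole multiples of a smallest step, so that depth could be read as 0.978 to 48.1 M reads for a library (M, mega) and as 14.8 to 1229 k reads behind the SBE4 contacts (k, kilo). One library stood apart, technical replicate 1 of tSBE(6+2-Vp64) replicate 1. It had all 1108 SBE4 contacts above 0 (35.1% to 93.7% in the other 10 libraries) and 0.536% of the SBE4 signal in its highest pair (7.29% to 22.2% in the others). A further feature touches every total. In the whole locus, 21 pairs over 50 kb apart each held more than 0.5% of some library, and together they took 40.5% to 49.7% of the NPC libraries, 31.1% of tSBE2-Vp64, 3.69% of tSBE6-Vp64, and 0.222% and 12.8% of the ESC libraries. In the 4 tSBE(6+2-Vp64) libraries they took 5.21% and 16.4% for replicate 1 and 27.6% and 8.09% for replicate 2. None of the 21 was an SBE4 contact.

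SBE4 took a smaller part of the reads in NPC than in ESC. Its summed signal, in reads per 1000 of the library, was 29.9 and 18.5 in the ESC replicates and 13.7 and 16.3 in the NPC replicates. Both NPC values were below both ESC values. The mean was 24.2 ± 8.11 (SD, n = 2) for ESC, and for NPC it was 15.0 ± 1.80 (SD, n = 2), a log2 ratio that fell by 0.69. The exact two-sided permutation p was 0.333, the smallest that 2 against 2 allows. Without the 21 high long-range pairs the groups overlapped, at 25.6 ± 6.24 (SD, n = 2) for ESC and, for NPC, 26.2 ± 1.56 (SD, n = 2).

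The transfected groups lay within or just below the range of the ESC replicates. The total was 26.7 in tSBE6-Vp64 and 17.6 in tSBE2-Vp64, the second just below the lower ESC replicate. In tSBE(6+2-Vp64) it was 29.1 and 18.6, and the 2 libraries behind the first value differed, at 37.3 and 20.9. Without the 21 high pairs tSBE2-Vp64 stood at 25.6, within the ESC range.

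The same comparison was made for 42 windows of 40 kb along the locus, with every partner counted. The SBE4 window had the third lowest NPC-to-ESC ratio (log2 −0.65, median of the 42 windows 0.24). Without the high pairs its ratio was log2 0.07, the fourth lowest, beside a median of 0.43. In tSBE2-Vp64 SBE4 had the fourth lowest ratio, at log2 −0.30, and in tSBE6-Vp64 it was 17th from the lowest, at log2 0.16. Without the high pairs the tSBE2-Vp64 ratio was log2 0.15, the sixth lowest. In tSBE(6+2-Vp64) SBE4 had the third lowest ratio, at log2 0.00, beside a median of 0.38. With replicate 1 taken from technical replicate 2 alone it was the fourth lowest, at −0.27, beside a median of 0.13.

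**Figure D1:**
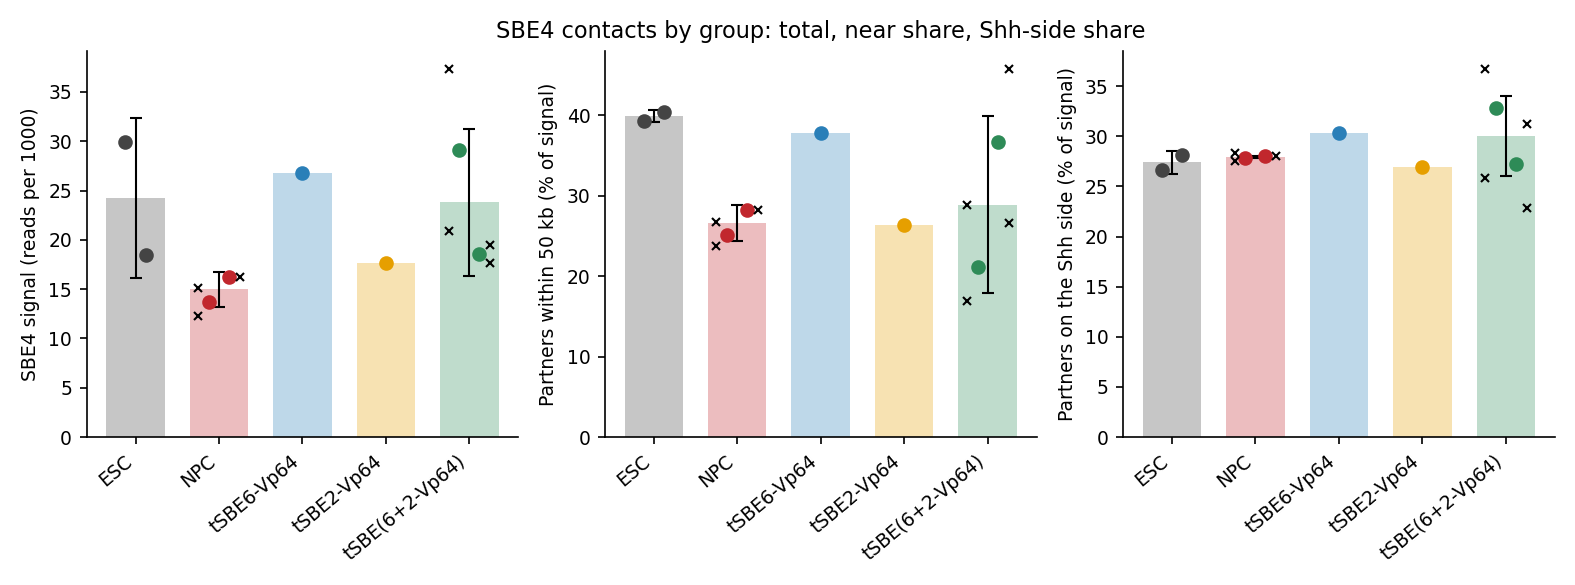
Left, summed SBE4 signal in reads per 1000; middle, percent of that signal with a partner within 50 kb of the window edge; right, percent with a partner on the Shh side. Bars are group means, circles biological replicates, crosses single libraries where a replicate has several, and error bars the SD of 2 replicates. In the middle panel both NPC replicates and tSBE2-Vp64 lie between 25.1% and 28.2%, below both ESC replicates. All panels leave out partners in the Shh and SBE6 windows.

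The near contacts of SBE4 carried a smaller share in NPC. Partners within 50 kb of the window edge made up 39.3% and 40.4% of the SBE4 signal in ESC and 25.1% and 28.2% in NPC. The means were 39.9% ± 0.742 (SD, n = 2) and 26.6% ± 2.23 (SD, n = 2), and the groups did not overlap (exact two-sided permutation p = 0.333). The share was 37.8% in tSBE6-Vp64 and 26.4% in tSBE2-Vp64, both below ESC. In tSBE(6+2-Vp64) it was 21.1% and 36.6%, and its 4 libraries ran from 16.9% to 45.7%.

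This was not particular to SBE4. In 37 of the 42 windows (88.1%) both NPC replicates were below both ESC replicates in near share, and the median change was −10.6 percentage points, against −13.2 for SBE4, with 12 windows lower still. For tSBE2-Vp64 the count was also 37 of 42 (88.1%), with a median change of −8.36 and an SBE4 change of −15.3. A large portion of the SBE4 change came from 2 fragment pairs. Without the 2 SBE4 pairs of highest mean signal, the near share in ESC was 32.5% ± 1.70 (SD, n = 2), and that in NPC 27.4% ± 2.32 (SD, n = 2), still without overlap. In tSBE6-Vp64 the difference from ESC turned from −2.10 to 0.57 percentage points without those 2 pairs, with a near share of 33.1%.

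Contacts at all distances gave a flatter decay in NPC. The slope of log10 signal on log10 distance between 20 and 1000 kb was −0.67 and −0.68 in the ESC replicates and −0.51 and −0.58 in the NPC replicates. It was −0.76 in tSBE6-Vp64, −0.54 in tSBE2-Vp64, and −0.40 and −0.67 in tSBE(6+2-Vp64). The tSBE6-Vp64 slope was the steepest of the 8 replicates.

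SBE4 contacts were also set against other pairs of the locus at the same distance in the same library. For pairs under 50 kb apart, SBE4 signal was 1.66 and 1.37 times that of other pairs in ESC and 0.644 and 0.723 times in NPC. The ratio was 1.25 in tSBE6-Vp64, 0.766 in tSBE2-Vp64, and 1.00 and 1.27 in tSBE(6+2-Vp64). The NPC and tSBE2-Vp64 values were below 1 and below both ESC replicates. The 1.00 of tSBE(6+2-Vp64) joined libraries at 0.824 and 1.23. Beyond 50 kb ESC replicate 2 was below 1 as well, at 0.891 from 50 to 200 kb, 0.919 from 200 to 400 kb and 0.470 beyond. From 50 to 200 kb the NPC values were 0.442 and 0.554, and without the 21 high pairs they were 1.63 and 1.71, above the 1.44 and 1.45 of ESC. The lower NPC ratio in that range thus ended without the high pairs. Under 50 kb the NPC values were then 0.647 and 0.723. All the high pairs are over 50 kb apart, so their removal could hardly change these values and is no test of them.

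SBE4 met partners on its 2 sides in steady proportions. The Shh side took 26.6% and 28.2% of the SBE4 signal in ESC, 27.9% and 28.0% in NPC, 30.3% in tSBE6-Vp64 and 26.9% in tSBE2-Vp64. It took 32.8% and 27.2% in tSBE(6+2-Vp64). The NPC minus ESC difference was 0.54 percentage points, within the ESC spread (SD 1.11). The 2.63 points by which tSBE(6+2-Vp64) exceeded ESC rested on the library that stood apart, since the difference was −0.84 points with replicate 1 taken from its other library.

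The domain was taken from the start of the Shh window to the middle of the Lmbr1 window. Without the Shh and SBE6 windows, signal inside it made up 82.2% and 81.8% in ESC and 74.5% and 73.5% in NPC. The flank beyond Shh, with Rbm33, Cnpy1, En2 and Insig1, took 7.96% and 8.63% in ESC and 11.5% and 11.1% in NPC. The flank beyond Lmbr1, with Nom1, Mnx1 and Ube3c, took 9.80% and 9.58% in ESC and 14.1% and 15.4% in NPC. In these 3 shares ESC and NPC did not overlap. The domain share was 84.3% in tSBE6-Vp64, 76.3% in tSBE2-Vp64, and 69.9% and 81.0% in tSBE(6+2-Vp64).

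**Figure D2:**
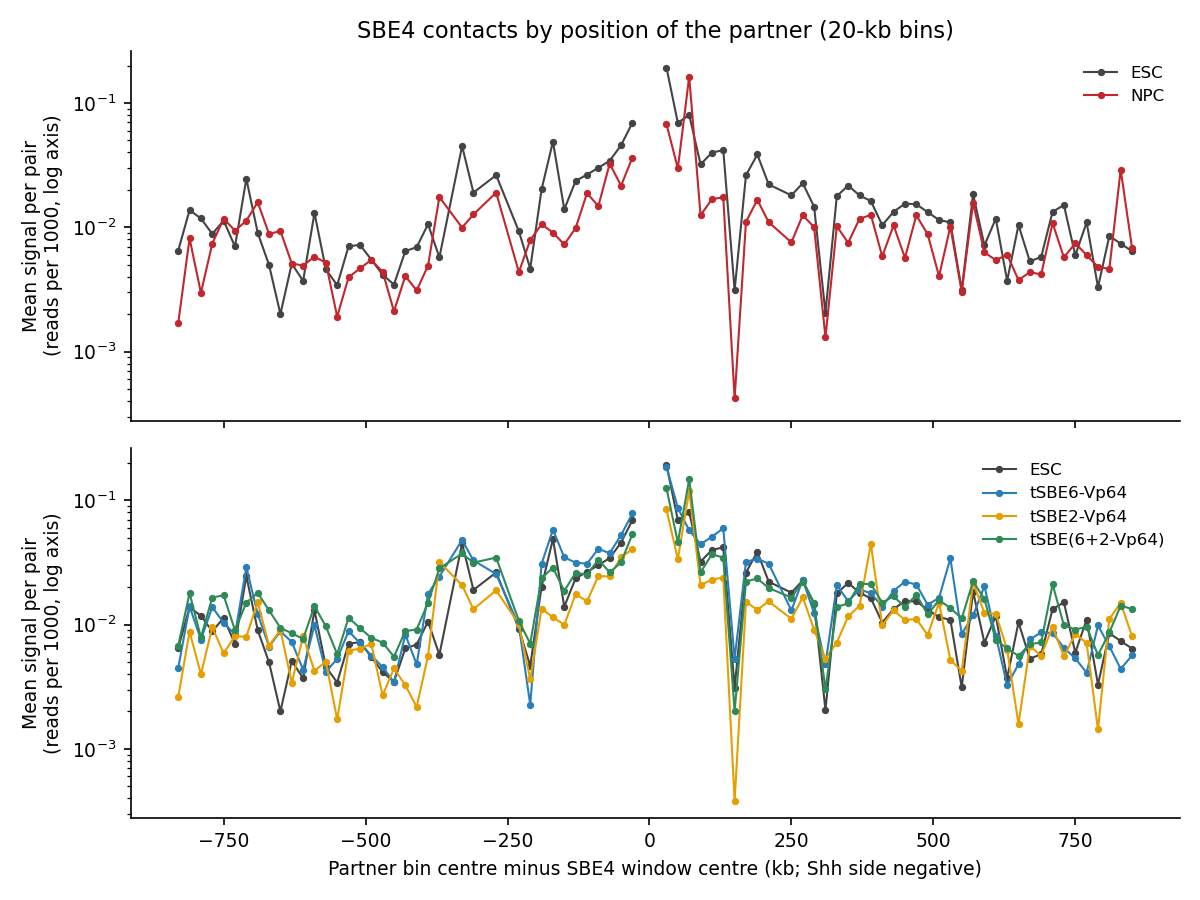
Mean signal per SBE4 fragment pair (reads per 1000, log axis) in 20-kb bins of the partner, against the distance in kb from the SBE4 window centre, with the Shh side negative and the partners in the Shh and SBE6 windows left out. Lines join group means, ESC with NPC above and ESC with the transfected groups below. NPC runs below ESC over most bins near the window, and its peak on the Lmbr1 side holds the pair Shh_259 with Shh_281.

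The 7 fragments of the window differed in signal. Shh_259 (29160129 to 29166826, at the Lmbr1-side edge) had the highest summed signal, in reads per 1000. It gave 9.60 and 6.40 in ESC, 4.05 and 5.17 in NPC, 5.86 in tSBE6-Vp64, 4.26 in tSBE2-Vp64, and 5.31 and 7.12 in tSBE(6+2-Vp64). Both NPC replicates lay below both ESC replicates. Shh_252 (29131878 to 29136802) had the lowest mean over the 8 replicates, at 1.48 and 1.56 in ESC, 0.628 and 0.870 in NPC, 2.05 in tSBE6-Vp64 and 0.842 in tSBE2-Vp64, again with NPC below ESC.

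Signal did not follow fragment length. Shh_254, the longest at 17002 bp, summed to 3.40 in ESC, while Shh_256, of 3679 bp, summed to 4.50. The log2 NPC-to-ESC ratio of the fragments ran from −1.02 to 0.02, and 6 of 7 were below 0. The exception was Shh_258, of 720 bp, with an ESC sum of 2.43 ± 1.57 (SD, n = 2) and an NPC sum of 2.47 ± 0.222 (SD, n = 2). Of its NPC mean, 0.404 was the pair with Shh_548 and 0.225 the pair with Shh_388, which averaged 0.0118 and 0.0535 in ESC. The fragment values were not recomputed without the high long-range pairs, where the NPC-to-ESC ratio of the SBE4 total was log2 0.03. Shh_258 was also the fragment with the highest ratio in tSBE2-Vp64, at 4.16 (log2 0.77). Of that sum, 1.03 was 1 pair, Shh_258 with Shh_388, and the ESC replicates of the fragment summed to 3.54 and 1.32. The 5C design pairs only forward with reverse oligonucleotides, but the fragment names do not give the type. Here 2 classes of fragments were inferred from which pairs were above 0. Every measured SBE4 pair therefore joins the 2 classes by construction. Neighbouring fragments of different classes had different measured partners.

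**Figure D3:**
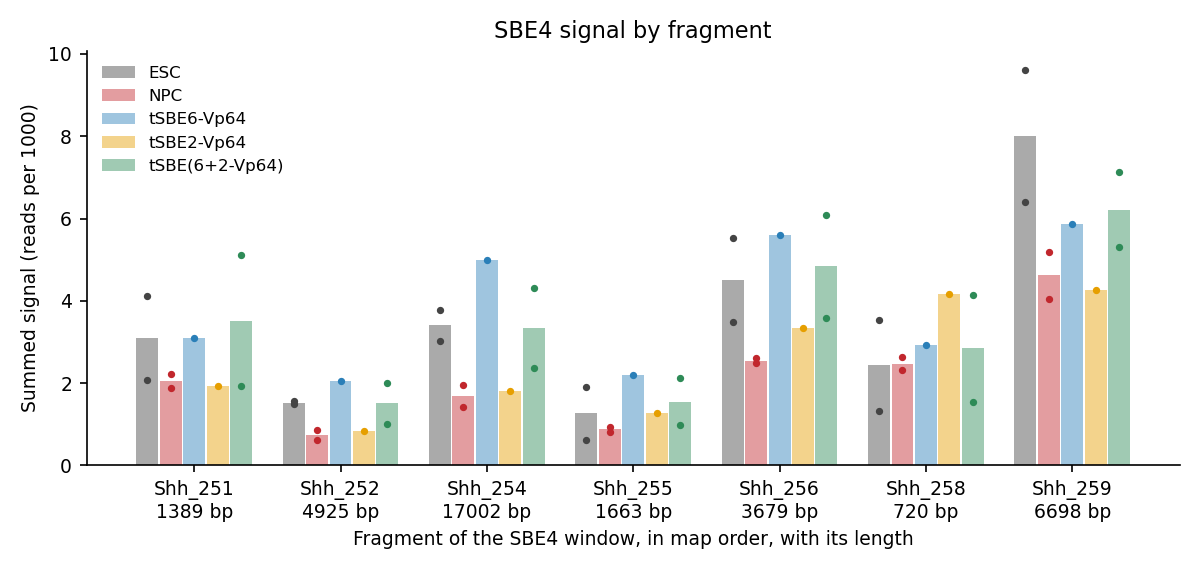
Summed SBE4 signal (reads per 1000) of each of the 7 fragments of the window, in map order with length in bp. Bars are group means, points biological replicates. Shh_259 is highest in ESC at 8.00, and Shh_258 is higher in tSBE2-Vp64, at 4.16, than in either ESC replicate. Of that 4.16, 1.03 is 1 pair, Shh_258 with Shh_388.

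The 2 highest contacts differed between ESC and NPC in opposite directions. The highest pair joined Shh_259 with its map neighbour Shh_260 (29166827 to 29168466, midpoints 4.17 kb apart). It gave 3.59 and 2.26 reads per 1000 in ESC and 0.562 and 0.681 in NPC, with no overlap, an ESC mean 4.70 times that of NPC. It gave 1.95 in tSBE6-Vp64, 0.867 in tSBE2-Vp64, and 1.20 and 2.11 in tSBE(6+2-Vp64), all below the lower ESC replicate. The 1.20 joined the library that stood apart, at 0.133, with one at 2.27, which was just above the lower ESC replicate. The libraries of replicate 2 gave 1.92 and 2.30.

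The second pair joined Shh_259 with Shh_281 (29220328 to 29223230), 58.3 kb towards SBE2. It gave 0.169 and 0.758 in ESC and 1.97 and 2.10 in NPC, with no overlap, an NPC mean 4.40 times that of ESC. It gave 0.130 in tSBE6-Vp64, 1.37 in tSBE2-Vp64, and 0.868 and 2.36 in tSBE(6+2-Vp64). All but tSBE6-Vp64 were above both ESC replicates. The 2 libraries of tSBE(6+2-Vp64) replicate 2 gave 3.92 and 0.801, and those of replicate 1 gave 0.189 and 1.55.

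The higher NPC signal at Shh_281 was not seen in the pairs around it, which were looked at after these values were known. Shh_256 with Shh_281 gave 0.104 and 0.107 in ESC and 0.0660 and 0.0144 in NPC, so both NPC replicates were lower. Shh_259 with Shh_279, the partner next to it on the SBE4 side, gave 0.239 and 0.0906 in ESC and 0.0222 and 0.0551 in NPC. The 6 pairs of Shh_259 with partners checked nearby, Shh_279 among them, had means over the 8 replicates between 0.0117 and 0.0909.

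The other 3 of the 5 highest pairs were short and lower in NPC. Shh_256 with Shh_260 gave 0.406 and 0.260 in ESC and 0.179 and 0.189 in NPC. Shh_259 with Shh_262 gave 0.597 and 0.337 in ESC and 0.155 and 0.267 in NPC. Shh_251 with Shh_248, on the Shh side, gave 0.368 and 0.395 in ESC and 0.156 and 0.190 in NPC. In each, both NPC replicates were below both ESC replicates. Over 11 alternatives of processing, the log2 NPC-to-ESC ratios of the 3 stayed below 0, reaching −0.11, −0.43 and −0.45 in this order. In tSBE6-Vp64 the first was above both ESC replicates, at 0.583, and the other pair values, 0.275 and 0.302, were below them.

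**Figure D4:**
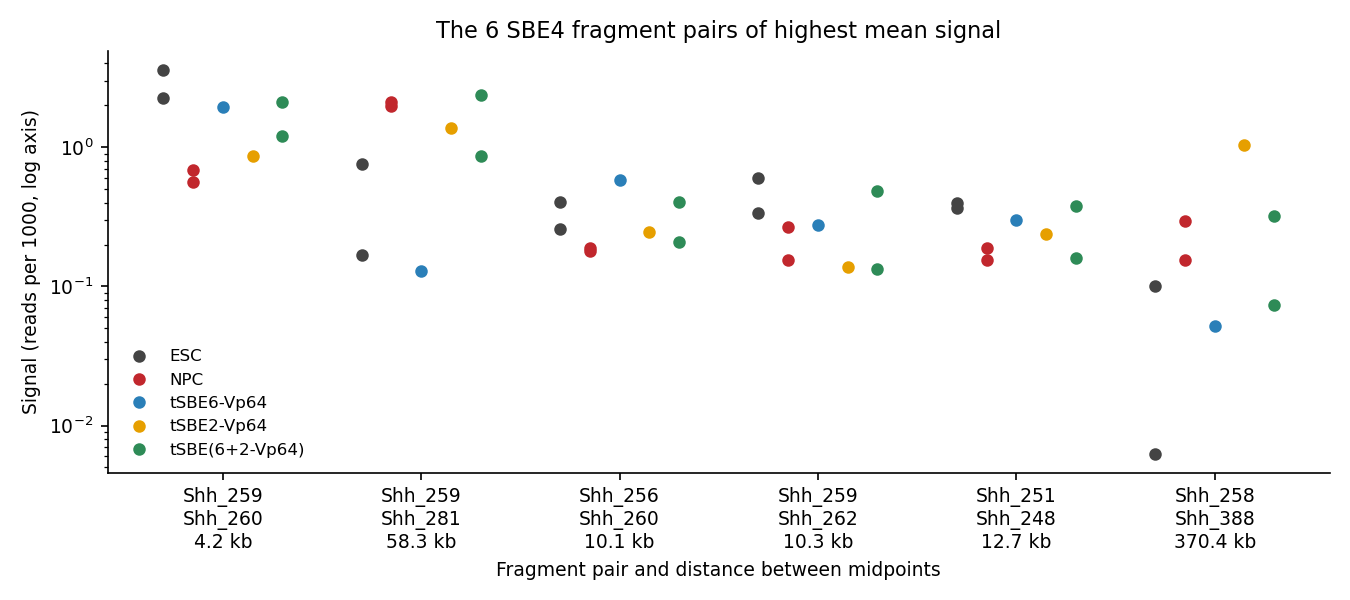
Signal (reads per 1000, log axis) of the 6 SBE4 fragment pairs of highest mean over 8 replicates, with the distance between midpoints in kb. Points are biological replicates. Shh_259 with Shh_260 is lower and Shh_259 with Shh_281 higher in NPC than in ESC, and Shh_258 with Shh_388 is highest in tSBE2-Vp64 at 1.03.

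Contacts with other enhancers and genes were read as the mean signal per fragment pair between 40-kb windows around approximate positions. SBE2, the nearest of the 11 at 100 kb, was the strongest in ESC, with 0.0491 and 0.0229 reads per 1000 per pair. Relative to the mean at the same distance it stood at 1.07 in ESC, below Insig1 (1.40), Lmbr1 (1.28) and Rnf32 (1.13). In NPC SBE2 gave 0.0124 and 0.0169. Both NPC replicates were below both ESC replicates, which held for 4 of the 11 windows (SBE2, Rnf32, the ZRS and Mnx1) and for 28.6% of all 91 window pairs. The log2 difference for SBE2, on the scale log2(value + 0.00293), was −1.07 (SE 0.58, 95% interval −2.21 to 0.07), with a limma adjusted p of 0.784. Over 22 alternatives of processing it ran from −1.82 to −0.05, and it was −0.45 without the high long-range pairs. SBE4 with SBE2 gave 0.0476 in tSBE6-Vp64, 0.0219 in tSBE2-Vp64, and 0.0414 and 0.0217 in tSBE(6+2-Vp64). With Vp64 aimed at SBE2 the value was just below the lower ESC replicate, at a log2 difference of −0.56 (SE 0.71).

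The ZRS, the limb enhancer, gave 0.0166 and 0.00843 in ESC and 0.00710 and 0.00724 in NPC, the NPC replicates being lower (log2 −0.56, SE 0.61). In tSBE6-Vp64 the ZRS gave 0.0147 and in tSBE2-Vp64 0.00952, both between the ESC replicates. Lmbr1, the gene that holds the ZRS and encodes a membrane protein, gave 0.0111 and 0.0160 in ESC and 0.0110 and 0.0134 in NPC, which overlapped. In tSBE(6+2-Vp64) Lmbr1 gave 0.0192 and 0.0182, both above ESC, with 47.7% of it in the pair Shh_256 with Shh_463. Replicate 1 was not above ESC without the library that stood apart, since its other library gave 0.0143, and the libraries of replicate 2 gave 0.0257 and 0.0106.

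Rnf32, which encodes a RING finger protein, gave 0.0171 and 0.0165 in ESC, 0.0153 and 0.00930 in NPC, 0.0183 in tSBE6-Vp64 and 0.0346 in tSBE2-Vp64. The tSBE2-Vp64 value was above both ESC replicates (log2 0.92, SE 0.70), and 69.5% of it was 1 pair, Shh_258 with Shh_388 (29530052 to 29530237). That pair gave 1.03 in tSBE2-Vp64, 0.00629 and 0.101 in ESC, 0.297 and 0.154 in NPC, and 0.0517 in tSBE6-Vp64. In tSBE(6+2-Vp64) it gave 0.322, from libraries at 0.0412 and 0.602, and 0.0734. Shh_388 with the SBE4 fragments Shh_252 and Shh_255 was at 0.00278 and 0.000893 in tSBE2-Vp64. Shh_258 with a nearby partner, Shh_391, was also higher in tSBE2-Vp64, at 0.0961 against 0.00651 and 0.00891 in ESC. It was above ESC in the other groups too, at 0.0118 and 0.0192 in NPC and 0.0513 in tSBE6-Vp64. In tSBE(6+2-Vp64) it gave 0.0284 and 0.0789. Of the other partners of Shh_258 checked in tSBE2-Vp64, Shh_379 and Shh_383 were above both ESC replicates. Shh_394 and Shh_399 lay between them. With 10-kb windows the Rnf32 difference turned to log2 −1.65, and relative to distance to −0.18.

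On the far side of Shh, En2, a homeobox gene of the midbrain and hindbrain, gave 0.00570 and 0.00168 in ESC and 0.00952 and 0.00642 in NPC. It was the 1 window of 11 with both NPC replicates above both ESC replicates (18.7% of the 91 window pairs were), at log2 0.77 (SE 0.62). With 10-kb windows the En2 difference turned to log2 −0.54. En2 was also above both ESC replicates in tSBE6-Vp64 at 0.00774, in tSBE2-Vp64 at 0.00773, and in tSBE(6+2-Vp64) at 0.0153 and 0.00678. Of the 91 window pairs, 45.1%, 28.6% and 11% were above both ESC replicates in these groups. The 3 differences were log2 0.76, 0.76 and 1.08, and they share the ESC replicates. The 0.0153 joined libraries at 0.0229, from the one that stood apart, and 0.00777, and with the second alone the difference was log2 0.70.

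The other 6 windows are given by their group means. Insig1, which restrains sterol synthesis, averaged 0.0113 in ESC and 0.0117 in NPC. Cnpy1, a gene of fibroblast growth factor signalling, averaged 0.00577 and 0.00500, and Rbm33, which encodes an RNA-binding protein, 0.00299 and 0.00229. Nom1, which encodes a nucleolar protein, averaged 0.00706 in ESC and 0.00723 in NPC. Mnx1, a homeobox gene of motor neurons, averaged 0.00588 and 0.00364, with both NPC replicates below ESC. Ube3c, which encodes a ubiquitin ligase, averaged 0.00738 and 0.00466.

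None of the 11 windows passed the test in any group. Over the 91 window pairs, limma with Benjamini-Hochberg adjustment called 0 in each comparison (0% in each). At an unadjusted p under 0.05, 0 of the 11 passed in each. Of all 91, 4 (4.4%) passed for NPC, 0 for tSBE6-Vp64, and 2 (2.2%) each for tSBE2-Vp64 and tSBE(6+2-Vp64). For the 11 the median log2 difference from ESC was −0.16 in NPC, 0.16 in tSBE6-Vp64, 0.21 in tSBE2-Vp64 and 0.19 in tSBE(6+2-Vp64), beside −0.11, 0.27, 0.03 and 0.17 over all 91. Without the high long-range pairs the NPC median of the 11 turned to 0.27, beside 0.40 over all 91. With libraries scaled over pairs beyond 50 kb, 2 of the 11 were called in NPC, of 17 called in all, and relative to distance 1 of 8. As to the pairs set apart, SBE4 with Shh gave 0.0219 and 0.0164 in ESC and 0.0139 and 0.00959 in NPC, and SBE4 with SBE6 gave 0.0265 and 0.0197 in ESC and 0.0809 in tSBE2-Vp64, 72.6% of that in 1 pair.

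**Figure D5:**
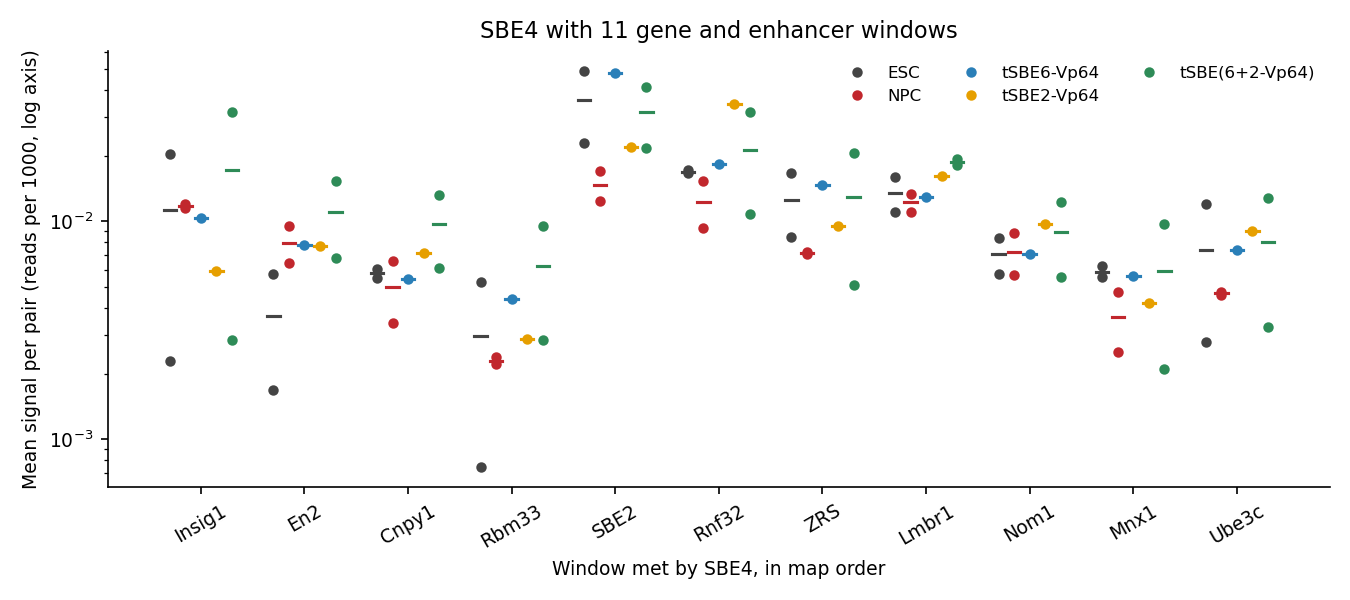
Mean signal per fragment pair (reads per 1000, log axis) between SBE4 and 11 gene and enhancer windows, in map order. Points are biological replicates and short lines group means. SBE2, the nearest window, is highest in ESC before any correction for distance, and En2 lies above both ESC replicates in the other groups.

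Finer partners were tested in 20-kb bins, of which SBE4 had 158 pairs among 3461 tested. No SBE4 bin pair passed the test in NPC: limma called 0 of 158 after adjustment, while it called 40 of all 3461 (1.16%). At an unadjusted p under 0.05, 3 SBE4 pairs were higher and 14 lower, or 1.90% and 8.86% of them, beside 2.86% and 6.1% of all pairs. Both NPC replicates were below both ESC replicates in 58 SBE4 pairs, 36.7% of them, beside 29.7% of all, and above in 11, or 6.96%, beside 12.9%. The median SBE4 difference was log2 −0.61, and over all bin pairs −0.31. By distance from the window edge it was −0.87 in 20 pairs under 100 kb, −0.81 in 34 pairs from 100 to 300 kb and −0.32 in 104 pairs beyond. Without the high long-range pairs the SBE4 median was log2 0.01, and that over all bin pairs 0.30. The medians by distance and the counts of pairs below or above ESC are given with the high pairs kept. The absence of calls rested on both groups' replicates, since 2 SBE4 pairs were called without ESC replicate 1 and 2 without NPC replicate 2.

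The 3 SBE4 pairs of smallest p in NPC were all lower and all pointed to the Shh side. The first joined the bins at 29125001 and 28825001 through 1 fragment pair, Shh_252 with Shh_162. It gave 0.0260 and 0.0176 in ESC, 1.16e-05 and 0 in NPC, and 0.0413 in tSBE6-Vp64 (log2 −4.83, SE 1.36, limma adjusted p 0.103). The second joined 29145001 with 28965001, at 0.0593 and 0.0360 in ESC and 0.0101 and 0.00713 in NPC (log2 −2.34, SE 0.71, limma adjusted p 0.151). The third joined 29145001 with 28805001, just past the Shh window, at 0.0519 and 0.0464 in ESC and 0.00742 and 0.0150 in NPC (log2 −2.13, SE 0.68, limma adjusted p 0.180). In all 3 the groups did not overlap, and tSBE6-Vp64 was above ESC, at 0.0640 in the second and 0.0550 in the third.

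With Vp64 at SBE6 and SBE2 together, 0 of 158 SBE4 pairs passed limma's adjusted threshold, and 7 of 3461 did in all (0.202%). At an unadjusted p under 0.05, 5 were higher and 0 lower, beside 3.21% and 0.26% of all. Both replicates were above both ESC replicates in 20 SBE4 pairs, 12.7% of them, beside 16.4% of all, and below in 8, or 5.06%, beside 4.39%. With replicate 1 from technical replicate 2 alone, 11 SBE4 pairs were above (6.96%, beside 10.9% of all) and 36 below (22.8%, beside 20.5%). The smallest p belonged to the bins at 29125001 and 28765001, the fragment pair Shh_252 with Shh_140, whose partner lies at the outer edge of the Shh window. It gave 0.00223 and 0.000242 in ESC and 0.0240 and 0.0497 in tSBE(6+2-Vp64) (log2 4.34, SE 1.20, limma adjusted p 0.261). The libraries behind these values differed, at 0.0463 and 0.00175 in replicate 1 and 0.000271 and 0.0992 in replicate 2. Without the library that stood apart the groups overlapped, with a log2 difference of 2.80 (limma adjusted p 0.916). Leaving out ESC replicate 1 gave 2 called SBE4 pairs. The next were 29125001 with 28465001, at log2 3.10 (limma adjusted p 0.999), and 29125001 with 29765001, at log2 3.02 (limma adjusted p 0.999).

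With Vp64 at SBE6 alone, limma called 0 of 158 SBE4 pairs and 0 of 3461 in all (0%), and 1 SBE4 pair was higher and 1 lower at an unadjusted p under 0.05, each 0.633% of them, beside 1.01% and 0.231% of all. The replicate was above both ESC replicates in 60 SBE4 pairs, 38.0% of them, beside 45% of all, and below in 31, or 19.6%, beside 15.9%. The same fragment pair, Shh_252 with Shh_140, came first, at 0.0295 (log2 4.12, SE 1.48, limma adjusted p 1.00). Then came 29125001 with 28305001, listed at 0 in tSBE6-Vp64 and at 0.00665 and 0.0178 in ESC, and 29145001 with 28765001, at 0.0218 (log2 2.59, SE 1.29). The single replicate is assumed in this fit to vary like the other groups, and 1 SBE4 pair was called without ESC replicate 1.

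With Vp64 at SBE2 alone, 0 of 158 SBE4 pairs were called by limma, beside 13 of 3461 (0.376%). At an unadjusted p under 0.05, 1 was higher and 5 lower, or 0.633% and 3.16%, beside 2.08% and 1.59% of all. The single replicate was below both ESC replicates in 70 SBE4 pairs, 44.3% of them, beside 33.1% of all, and above in 27, or 17.1%, beside 26.3%. The first pair joined 29125001 with 28545001, at 0.0000623 in tSBE2-Vp64 and 0.00733 and 0.0198 in ESC (log2 −3.95, SE 1.27, limma adjusted p 0.597). The second joined 29125001 with 29385001, at 0.00134 against 0.0240 and 0.0237 (log2 −3.55, SE 1.22, limma adjusted p 0.772). The third, 29145001 with 28765001, was higher, at 0.0454 against 0.0159 and 0.0000726 (log2 3.62, SE 1.29, limma adjusted p 0.888). Without ESC replicate 1, 1 SBE4 pair was called.

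SBE4 bin pairs under 100 kb from the window edge differed in median between the transfected groups, at log2 0.32 in tSBE6-Vp64, −0.65 in tSBE2-Vp64 and −0.23 in tSBE(6+2-Vp64), a difference that was not tested. Of these 20 pairs, the fitted difference was below 0 in 17 for NPC, 3 for tSBE6-Vp64, 18 for tSBE2-Vp64 and 13 for tSBE(6+2-Vp64). Of all bin pairs, at every distance, 62.6%, 28.2%, 52.1% and 37.4% were below 0. A share for other bin pairs under 100 kb was not computed. The near share was below both ESC replicates in 37 of the 42 windows (88.1%) for NPC and for tSBE2-Vp64 alike.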

How the data were processed

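The members, windows and gene lists were chosen with earlier results of these data known. The deposited signal is, per fragment pair, a library's reads scaled by the authors; this is read from the values. The aligner is not given in the sources used here. Coordinates are on mm9, per the submitters' processing notes and the fragment names. Each library was rescaled to 1000 over the 341 shared fragments, technical replicates were averaged, and the 8 biological replicates were used. Pairs at 0 in every library were left out. Tests ran in limma 3.58.1 (R 4.3.3) on log2(value + pseudocount), with the pseudocount at the 5th percentile of values above 0 (0.000774 for bins, 0.00293 for windows), a trended prior, all 5 groups in 1 fit with 3 residual degrees of freedom, and Benjamini-Hochberg adjustment at 0.05 over each whole table; bins needed a value above 0 in 2 replicates. The window fit took its spread from all 91 pairs together. The fit was tested on simulated data with normal noise of equal spread in every bin pair, a simpler setting than these data. P-values measure only the spread between these samples, which may be technical. Window positions are approximate and come from knowledge of the locus. Named were every window, the 5 highest fragment pairs, the fragments of highest and lowest signal, and per comparison up to 5 bin pairs that passed and moved alike in every replicate or else the 3 of smallest p. The rank 6 and rank 9 pairs, the neighbouring pairs, the fragments Shh_254, Shh_256 and Shh_258 and the far partner bins were chosen after their values were seen. Alternatives were other pseudocounts, filters, bin sizes and scalings, a replicate block and left-out replicates.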

Additional observations from a re-analysis of the deposited data

Results flagged for a closer look

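Each of 16 SBE4 measures was compared over the 4 libraries of tSBE(6+2-Vp64) for 1 library far from the others, a check that chance meets in about 1 in 20 groups. In 3 of them the highest library lay apart: the total SBE4 signal at 37.3 reads per 1000, SBE4 with En2 at 0.0229 per pair, and SBE4 with Rbm33 at 0.0151 per pair. All 3 values came from technical replicate 1 of replicate 1, the library with every SBE4 contact above 0.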

How the results depend on the processing

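Of the 44 window differences, 36 changed sign under at least 1 of 22 alternatives. For those given above as tested values, SBE4 with SBE2 in tSBE(6+2-Vp64) turned to 0.25 with 40-kb bins and 0.21 with medians over fragment pairs, and ran from −0.65 to 0.36 over left-out replicates. In tSBE6-Vp64 it ran from −0.040 to 0.97 over left-out replicates. Rnf32 turned to 0.19 in NPC without the high long-range pairs, and in tSBE2-Vp64 to −1.65 with 10-kb windows and −0.18 relative to distance. En2 in NPC turned to −0.54 with 10-kb windows. The count of called SBE4 bin pairs went from 0 to 1 in NPC and in tSBE(6+2-Vp64) with the higher pseudocount and with the replicate block, and to 1 in tSBE(6+2-Vp64) with 40-kb bins. Over left-out replicates it ran from 0 to 2 in NPC and tSBE(6+2-Vp64), and from 0 to 1 in tSBE6-Vp64 and tSBE2-Vp64. The count of called window pairs in NPC was 2 with scaling beyond 50 kb and 1 relative to distance. The log2 ratio of total signal to ESC was 0.033 in NPC and −0.0028 in tSBE2-Vp64 without the high pairs, and −1.58 in NPC, −1.18 in tSBE2-Vp64 and −0.47 in tSBE(6+2-Vp64) scaled beyond 50 kb. The Shh-side difference of tSBE(6+2-Vp64) was −0.84 points from technical replicate 2 alone, and from −0.17 to 5.43 over left-out replicates. Without the high pairs the median SBE4 bin-pair difference went from log2 −0.61 to 0.01 in NPC and from −0.31 to 0.01 in tSBE2-Vp64. The cause of these changes was not tested. Same-numbered replicates deviated together in 1 of 3 group pairs, ESC with tSBE(6+2-Vp64) (correlation 0.21), and not in ESC with NPC (−0.07) or NPC with tSBE(6+2-Vp64) (−0.01), so the numbers were not taken to pair the samples, and the replicate block raised the calls over all bin pairs from 40 to 86 in NPC. The relative-to-distance values, the single-library version, the other place for the repeated NPC file and the removal of the 2 highest pairs were chosen after seeing the data. Single 20-kb pairs rest on few fragment pairs, often 1 to 3, and 35.1% to 100% of the SBE4 contacts were above 0 by library.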

Other observations

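Beyond 100 kb, the 20-kb partner bins with the highest mean SBE4 signal over the 8 replicates lay on both sides. The first, at 29265001 beside SBE2, gave 0.0541 and 0.0296 reads per 1000 per pair in ESC and 0.0150 and 0.0198 in NPC. The second, at 29245001 in the SBE2 window, gave 0.0608 and 0.0188 in ESC and 0.0144 and 0.0192 in NPC, which overlapped. The third, at 28805001 beside the Shh window, 330.0 kb away, gave 0.0461 and 0.0441 in ESC and 0.00557 and 0.0143 in NPC. The fourth, at 28965001, gave 0.0615 and 0.0363 in ESC and 0.0101 and 0.00802 in NPC. The first, the third and the fourth were lower in both NPC replicates than in both ESC replicates, as were the fifth (29325001) and the seventh (29025001). The second, the sixth (28865001) and the eighth (28825001) overlapped. A share over all partner bins was not computed. Of single 20-kb bin pairs, 36.7% of those of SBE4 and 29.7% of all were lower in this way. The partner bins keep the high long-range pairs, without which the NPC-to-ESC ratio of the SBE4 total was log2 0.03. In tSBE6-Vp64 the first 4 gave 0.0595, 0.0509, 0.0479 and 0.0581.

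The ninth highest SBE4 pair, Shh_258 with Shh_548, spanned 818.5 kb to a partner beyond Ube3c (29977865 to 29978715). It gave 0.00483 and 0.0187 in ESC, 0.286 and 0.522 in NPC, and was listed at 0 in tSBE6-Vp64. It gave 0.0554 in tSBE2-Vp64 and 0.0218 and 0.137 in tSBE(6+2-Vp64), all above both ESC replicates. Both NPC replicates were the highest, but the mean that gave the pair its rank includes them. The NPC values thus largely set the choice of this pair, and their height is no separate result.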
